A study of Mus musculus with 4 samples.

Results

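Accessible DNA at 10 genes of Kit and erythropoietin receptor signalling is described here in the mouse erythroblast line G1ER: the receptor genes Kit and Epor, the kinase gene Jak2, the transcription factor genes Stat5a and Stat5b, the target kinase gene Pim1, and the inhibitor genes Cish, Socs1, Socs2 and Socs3. The members were the accessible regions inside the span of one of these genes, or with an end of one of them as the nearest protein-coding gene end within 100 kb (GRCm38, RefSeq). This gave 19 of the 15328 regions in the union of the 4 peak lists, and each of the 10 genes had at least 1. The rule used gene names and positions, not peak heights. The assay was ATAC-seq, in which a transposase cuts and tags open chromatin, applied to 50000 cells per library. There were 2 libraries of wild-type cells, replicate 1 labelled 1 h and replicate 2 labelled 2 h, and 2 of Chd7-/- cells with the same times, and the study asks how accessibility depends on CHD7, a nucleosome remodeller. "Wild-type" refers to Chd7, since G1ER cells of either genotype lack endogenous Gata1 and express a GATA1 fusion with the ligand-binding part of the estrogen receptor. No treatment was given per the labels, and all cells grew in 16% serum with 2 U/mL erythropoietin and 0.6% medium conditioned with stem cell factor, so the ligands of both receptors were in the medium. The descriptions of the 2 knockout libraries share a code, and an effect of 1 clone cannot be told apart from that of the genotype. Within each genotype the 2 replicates differ in labelled time, so their spread includes any effect of time, which cannot be told apart from replicate. The labels do not say whether replicates were separate cultures, and the rest of their spread may be technical alone.

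Kit is the receptor tyrosine kinase for stem cell factor and Epor is the receptor for erythropoietin, and erythroid progenitors depend on both. Epor has no kinase of its own: JAK2 is bound to it, phosphorylates it after ligand binding and activates STAT5A and STAT5B, which enter the nucleus and bind palindromic GAS sites. Their targets include Pim1, a serine/threonine kinase gene of cell survival, and the genes of CIS and the SOCS proteins, which bind the receptor or JAK2 and shut the signal down.

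The 250 bases before the RefSeq transcription start are shown for Kit, Socs1, Pim1 and Epor (RefSeq, GRCm38.p6). At Kit and Socs1 the summits were lower in both knockout libraries, but neither difference passed the test below (limma adjusted p = 0.387 for each). Pim1 held the strongest of the 19 regions, and the Epor start lay outside every peak. Capitals mark matches, on either strand, to the GATA factor motif AGATAA or its variant TGATAA, the GAS site of STAT5 (TTCNNNGAA), the RUNX motif TGTGGT, the E-box CAGCTG or its variant CAGATG, and the KLF motif CCACACCC. None of these motifs overlaps another in the windows shown. Kit, Pim1 and Socs1 have no match to these letters in this window and stand in lower case throughout. Stat5a, also lower in both knockout libraries, is not shown, and the window of its accessible start holds a CAGCTG match at -48 to -43.
Kit, chr5:75574737-75574986, plus strand: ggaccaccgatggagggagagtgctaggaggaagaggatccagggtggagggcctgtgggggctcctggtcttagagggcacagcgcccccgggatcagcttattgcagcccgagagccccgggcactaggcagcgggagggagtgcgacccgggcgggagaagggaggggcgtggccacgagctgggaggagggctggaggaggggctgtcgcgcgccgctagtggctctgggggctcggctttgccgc
Epor, chr9:21963577-21963826, minus strand: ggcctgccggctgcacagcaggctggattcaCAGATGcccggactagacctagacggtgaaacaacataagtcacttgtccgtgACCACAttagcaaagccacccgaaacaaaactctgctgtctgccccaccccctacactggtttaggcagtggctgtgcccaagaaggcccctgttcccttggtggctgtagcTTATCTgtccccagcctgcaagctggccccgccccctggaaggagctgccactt
Pim1, chr17:29490535-29490784, plus strand: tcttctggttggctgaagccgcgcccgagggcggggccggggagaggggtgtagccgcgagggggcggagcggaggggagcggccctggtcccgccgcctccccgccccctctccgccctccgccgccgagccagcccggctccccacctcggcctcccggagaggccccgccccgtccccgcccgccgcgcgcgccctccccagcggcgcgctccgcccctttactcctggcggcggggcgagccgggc
Socs1, chr16:10785537-10785786, minus strand: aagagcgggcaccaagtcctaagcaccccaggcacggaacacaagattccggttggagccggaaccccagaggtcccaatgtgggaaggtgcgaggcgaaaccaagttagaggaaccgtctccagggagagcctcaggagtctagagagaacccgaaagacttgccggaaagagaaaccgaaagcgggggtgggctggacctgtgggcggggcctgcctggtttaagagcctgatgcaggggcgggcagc
The windows of Kit, Pim1 and Socs1 overlap regions called in every library. That of Epor overlaps none. GC content was 82.4% at Pim1, 70.8% at Kit, 61.2% at Socs1 and 58.8% at Epor, against a median of 52.4% over the 32851 windows of the table. CpG dinucleotides numbered 36 at Pim1, 17 at Kit, 13 at Socs1 and 6 at Epor, against a median of 6. The Epor window holds an AGATAA match at -54 to -49, a TGTGGT match at -166 to -161 and a CAGATG match at -219 to -214, counted from the start. These letters occur in 9.99%, 14.0% and 14.4% of all windows, in that order.

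A GAS match was found in 1 of the 13 windows of the 9 members with a start in the table, that of Socs3, and in 7.02% of all windows. It lies at -154 to -146 from the start, shown in capitals within 30 bases.
Socs3, chr11:117969501-117969530, minus strand: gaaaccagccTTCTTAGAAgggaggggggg
This site is inside the region at the Socs3 start that was called in every library. CAGCTG matched at Jak2, Stat5a and Stat5b (13.0% of all windows) and CAGATG at Epor and Stat5a. The CAGCTG of Stat5b (start 100822570) and the CAGATG of Stat5a (start 100859656) lie in windows that overlap no region. TGATAA and CCACACCC matched at 0 of the 13 windows of these genes, and in 7.94% and 3.20% of all windows.

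The lists held between 11084 and 12443 peaks on the nuclear chromosomes. Read depth is unknown, but the whole-number count at each peak summit could be recovered from the deposited fold enrichment and p-value, and is called the summit pileup below. Its unit is written as fragments, but read shift and duplicate handling are not stated, so what 1 count stands for is not certain. Each library's own summit was used, so the values compared within a region can come from different bases. The lowest background density, in fragments per base, was 0.787 in wild-type replicate 1 and between 1.01 and 1.08 in the other 3 libraries. Of 10 erythroid marker genes, 7 had a region and 6 had one called in all libraries (among them Klf1, Alas2, Tfrc, Epor and Gata1), while Hbb-b1, Hba-a1 and Slc4a1 had none. Regions were found at 4 of 5 megakaryocyte markers, 2 of 5 mast cell markers, 1 of 6 myeloid markers and 0 of 6 lymphoid markers. Per library the erythroid markers with a peak numbered 7 in wild type and 6 in knockout, and the megakaryocyte markers 3 or 4.

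Most of these signalling genes had an accessible site at or just inside the gene that recurred in every library, and Stat5b was the exception. Of the 19 regions, 11 (57.9%) were called in all 4 libraries, close to the 56.8% of all regions, and these 11 belonged to 9 of the 10 genes. Over all protein-coding genes, 37.9% had such a region. A RefSeq start site lay inside a region called in every library for 7 of the 9 members with a start in the table: Kit, Jak2, Stat5a, Pim1, Cish, Socs1 and Socs3. The same held for 32.6% of 17491 protein-coding genes. The other 8 regions were called in 3 libraries (1), 2 libraries (3) or 1 library (4), and 6 of these 8 lay outside the gene, against 2 of the 11. Their summits held 6 to 14 fragments.

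**Figure D1:**
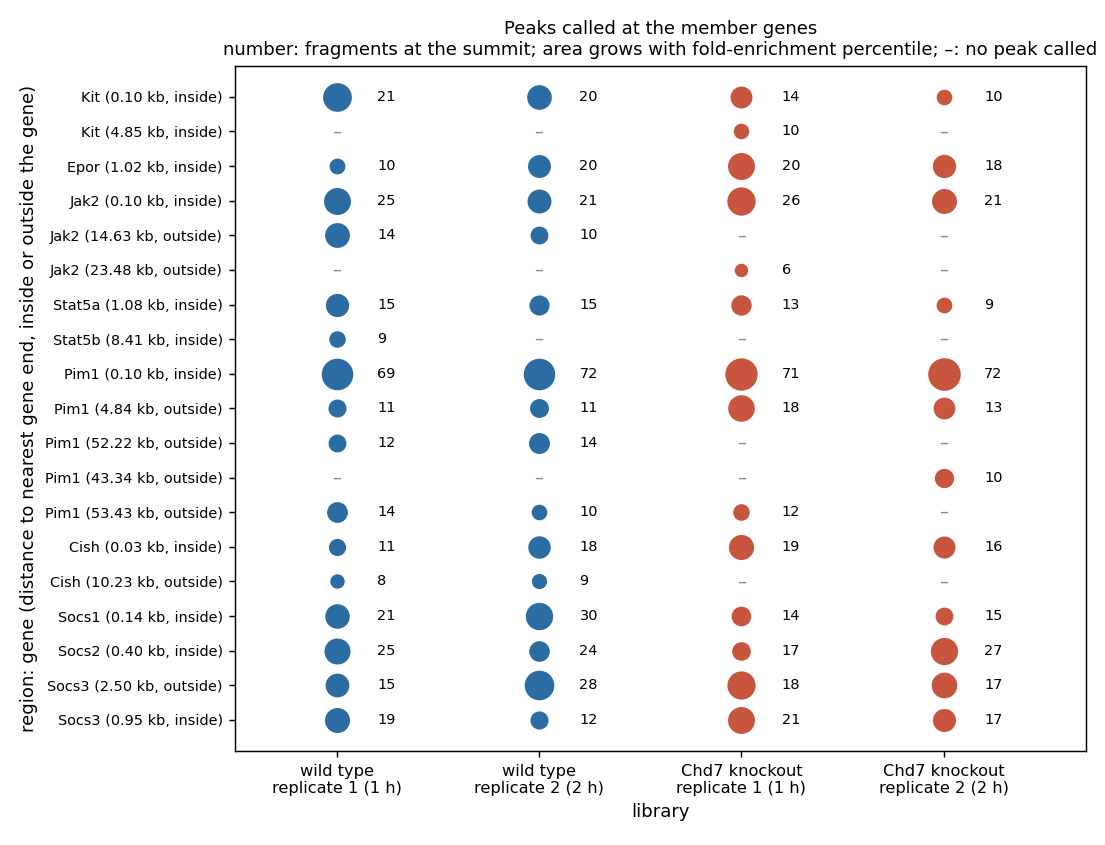
Each line is 1 of the 19 regions, labelled with its gene, the distance from its middle to the nearest gene end and whether it overlaps the gene, and each column is 1 library. Numbers are fragments at the summit, circle area grows with the percentile of fold enrichment in that library's own list, and a dash means no peak; the Pim1 region at the gene start (69 to 72 fragments) stands above all others, and the lines with dashes hold 14 fragments or fewer.

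The 11 recurrent regions were mostly of middling height. Within each list, fold enrichment (summit pileup over local background, each plus 1) ranks the peaks, and the mean percentile of these regions over the libraries had a median of 38.9, against 61.0 for all regions called in every library. It ran from 23.9 at Stat5a to 92.3 at Pim1. The mean pileup of the 11 had a median of 17.3 fragments, against 25 over all such regions.

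Kit, the stem cell factor receptor gene, had its main accessible site over the transcription start (chr5:75574657-75575115), and this site was lower in both knockout libraries. The summit held 21 and 20 fragments in replicates 1 and 2 of wild type, against 14 and 10 in those of knockout. Both wild-type values were above both knockout values. In bulk libraries, a site open in fewer cells and one less open in each cell cannot be told apart. Exact 95% Poisson intervals cover counting error only and take counts as independent. They ran from 13.0 to 32.1 for the 21 fragments and from 4.80 to 18.4 for the 10. The site stood at the 70.1 and 46.3 percentile of the wild-type lists and at the 32.2 and 7.18 percentile of the knockout lists. The knockout to wild-type ratio of pileup plus 1, after each library was centred on its median, was 0.632 (95% interval 0.462 to 0.865). On the log2 scale this is -0.66 ± 0.20 (SE, n = 2 and 2). It did not pass the limma test over 8704 regions (adjusted p = 0.387, unadjusted p = 0.00884). A second region inside Kit (chr5:75579741-75579940) was called in knockout replicate 1 alone, with 10 fragments.

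Epor, the erythropoietin receptor gene, had 1 region, inside the gene and not at its start (chr9:21962283-21962822). Summits lay 836 to 1010 bases downstream of the RefSeq start. The summit held 10 and 20 fragments in wild-type cells against 20 and 18 in knockout cells. Wild-type replicate 1 was the low library, and the other 3 were alike. On the centred log2 scale the difference was 0.48 ± 0.24 (SE, n = 2 and 2), with limma adjusted p = 0.632. Leaving out wild-type replicate 1 gave 0.12 and leaving out wild-type replicate 2 gave 0.80. Wild-type replicate 1 is also the library with the lowest background, and with libraries scaled by lowest background the difference was 0.24.

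Jak2, the kinase gene, had a region over its start (chr19:29251291-29252119) at nearly the same height in both genotypes. It held 25 and 21 fragments in wild type against 26 and 21 in knockout. The values overlapped, and the log2 difference was 0.11 ± 0.21 (SE, n = 2 and 2), 95% interval -0.36 to 0.58, limma adjusted p = 0.931. With libraries scaled by lowest background the difference was -0.13. A weaker region 14628.5 bases from the gene (chr19:29237013-29237336) had 14 and 10 fragments in wild type and no peak in knockout. A region 23475.5 bases away had 6 fragments in knockout replicate 1 alone, the lowest summit of the 19.

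Stat5a and Stat5b lie side by side on chromosome 11 and encode closely related proteins. Stat5a had a region over 1 of its 2 listed starts (chr11:100860194-100860673), with 15 fragments in each wild-type library against 13 and 9 in knockout. Both knockout values were lower. The log2 difference was -0.35 ± 0.20 (SE, n = 2 and 2), with limma adjusted p = 0.669. It was -0.23 without knockout replicate 2, -0.54 without knockout replicate 1 and -0.59 with libraries scaled by lowest background. Stat5b had 1 region, over 1 of its 2 listed starts (chr11:100850491-100850690), called in wild-type replicate 1 alone with 9 fragments and a fold enrichment of 5.05. The deposited lists do not say how reads matching more than 1 place were treated, so peaks in stretches the neighbouring genes share are uncertain.

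Pim1, the survival kinase gene, held the strongest site of the set, and in raw fragments the steadiest, over its start (chr17:29490270-29491107). It had 69 and 72 fragments in wild type against 71 and 72 in knockout. The 4 libraries thus spanned 3 fragments, and the site stood at the 88.8 to 96.5 percentile of the lists. The exact 95% Poisson interval of the 69 fragments, 53.7 to 87.3, was wider than this span. In centred log2 pileup, knockout minus wild type was -0.0704 at 1 h and 0.273 at 2 h. Local background there was 4.16 to 4.82 fragments by the caller's estimate. Whether this includes the peak's own reads is not stated. The log2 difference was 0.10 ± 0.19 (SE, n = 2 and 2), 95% interval -0.32 to 0.52, with limma adjusted p = 0.930. It was -0.13 with libraries scaled by lowest background.

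Pim1 also had 4 regions outside the gene, the most of any member. That past its far end, 4837.5 bases away (chr17:29500737-29501160), had 11 fragments in each wild-type library against 18 and 13 in knockout. Both knockout values were higher, the reverse of Kit. The ratio was 1.44 (95% interval 1.06 to 1.95), which did not pass the limma test (adjusted p = 0.497, unadjusted p = 0.0249). On the log2 scale the difference was 0.52, and 0.29 with libraries scaled by lowest background. The other 3 regions lay on the other side, 43335.5 to 53434.5 bases away. Of these, chr17:29437124-29437577 had 14, 10 and 12 fragments in wild-type replicates 1 and 2 and knockout replicate 1. Its neighbour chr17:29438372-29438761 had 12 and 14 fragments in wild type and no peak in knockout. The remaining one (chr17:29447301-29447598) had 10 fragments in knockout replicate 2 alone.

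The inhibitor genes had estimates in both directions, and none passed the test. Socs1, whose product blocks JAK kinase activity, had 1 region over its start (chr16:10785057-10785736), with 21 and 30 fragments in wild type against 14 and 15 in knockout. Both wild-type values were higher, and the summits of the libraries lay up to 256 bases apart. The ratio was 0.627 (95% interval 0.459 to 0.857), with limma adjusted p = 0.387 and unadjusted p = 0.00787. With Kit it had the lowest p of the 11 regions.

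Cish encodes CIS, which competes for STAT5 docking sites on the receptor. The region over its start (chr9:107296443-107296942) had 11 and 18 fragments in wild type against 19 and 16 in knockout. Wild-type replicate 1 was again the lowest, and the log2 difference was 0.37 ± 0.21 (SE, n = 2 and 2), with limma adjusted p = 0.668. Without that library it was 0.15, and without wild-type replicate 2 the estimate became 0.56. Scaling by lowest background gave 0.14. A region 10232.5 bases from the gene (chr9:107312756-107313277) had 8 and 9 fragments in wild type and no peak in knockout.

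Socs2, a regulator of growth hormone and cytokine receptors, had 1 region at a gene end (chr10:95416435-95417403). It held 25 and 24 fragments in wild type against 17 and 27 in knockout, so the knockout libraries lay on either side of the wild-type pair (log2 difference -0.10 ± 0.27 (SE, n = 2 and 2), limma adjusted p = 0.952). It was 0.27 without knockout replicate 1, -0.54 without knockout replicate 2 and -0.34 with libraries scaled by lowest background.

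Socs3, an inhibitor bound to both JAK and receptor, had a region over a start (chr11:117969057-117969709) and one 2495.5 bases beyond the gene (chr11:117963297-117963870). The start region held 19 and 12 fragments in wild type against 21 and 17 in knockout. The outer region held 15 and 28 in wild type against 18 and 17 in knockout. The wild-type replicates were ordered in opposite ways at these neighbouring sites, and both overlapped with knockout. The log2 differences were 0.38 ± 0.26 and -0.14 ± 0.23 (SE, n = 2 and 2), with limma adjusted p = 0.747 and 0.921. Without wild-type replicate 2 both changed sign, to -0.06 and 0.15, and without wild-type replicate 1 they were 0.81 and -0.45. Scaling by lowest background gave 0.15 and -0.37.

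**Figure D2:**
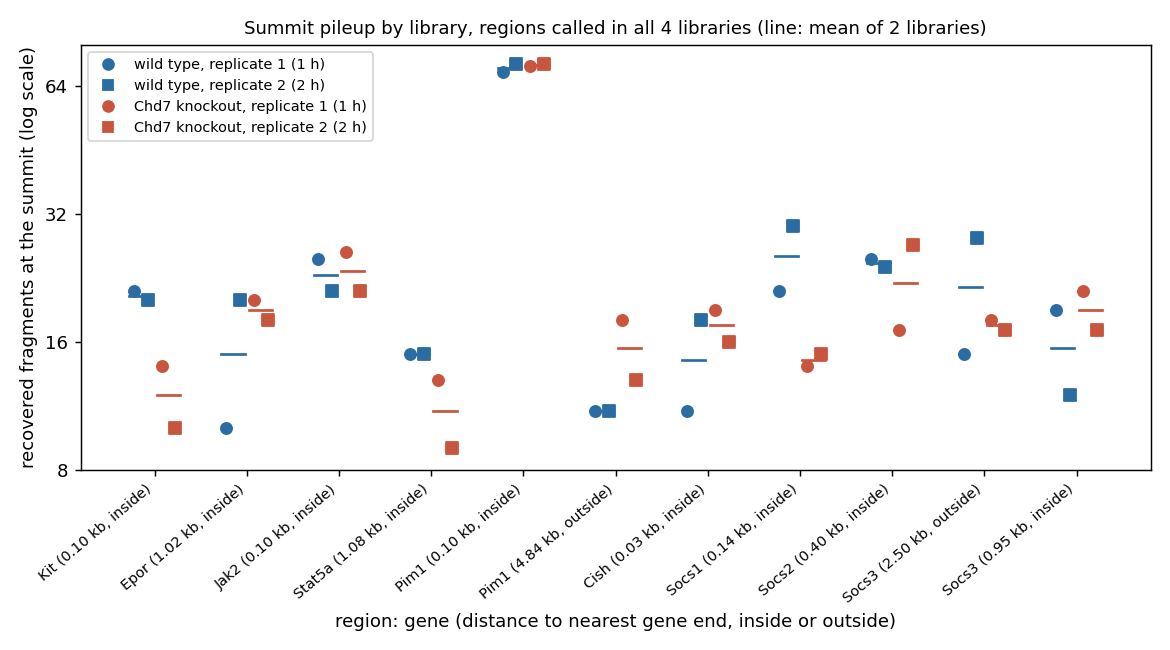
Fragments at the summit on a log axis for the 11 regions called in all libraries, with wild type in blue, knockout in red, circles for replicate 1 (1 h), squares for replicate 2 (2 h) and a line at each mean of 2 libraries. At Kit, Stat5a and Socs1 both red points lie under both blue ones, at the outer Pim1 region both lie above, and at the Pim1 start all 4 points fall between 69 and 72.

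Over the 11 regions, 0 passed the limma comparison of knockout with wild type, and 0 of 8704 did so genome-wide (0% called). In simulated libraries this comparison called 65% of regions changed 4-fold, so a region that did not pass may still differ. Unadjusted p-values below 0.05 were found for 3 of the 11 (Kit, Socs1 and the outer Pim1 region) and for 757 of the 8704 (8.7%). Estimates were positive at 6 and negative at 5 of the 11. Their median was 0.10 on the log2 scale, against 0.02 for all regions, and the median size regardless of sign was 0.37 against 0.16. These regions have fewer fragments than most, as given above, and the part of depth in that gap was not tested. The adjusted p-values of the 11 ran from 0.387 to 0.952.

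On the centred scale the genotypes did not overlap at 3 regions lower in knockout (Kit, Stat5a, Socs1) and 3 higher in knockout (Epor, Cish and the outer Pim1 region). Of all 8704 regions, 17.3% were lower in this way, 21.4% higher and 38.7% either. In raw fragments, Kit, Stat5a and Socs1 stayed apart and so did the outer Pim1 region, while Epor and Cish overlapped. Of all 8704 regions, 18.7% were lower and 9.21% higher in raw fragments. With libraries scaled by lowest background, 0 of the 11 were higher without overlap, against 4.73% of all regions. The 4 of the 11 that were then lower were Kit, Stat5a, Socs1 and the outer Socs3 region, against 41.4% of all regions, with the median of all regions at -0.21. Kit, Stat5a and Socs1 were lower in both knockout libraries under each of these 3 scalings, which all use the same counts. The share of all regions lower under all 3 was not computed, so this cannot be called particular to these genes.

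**Figure D3:**
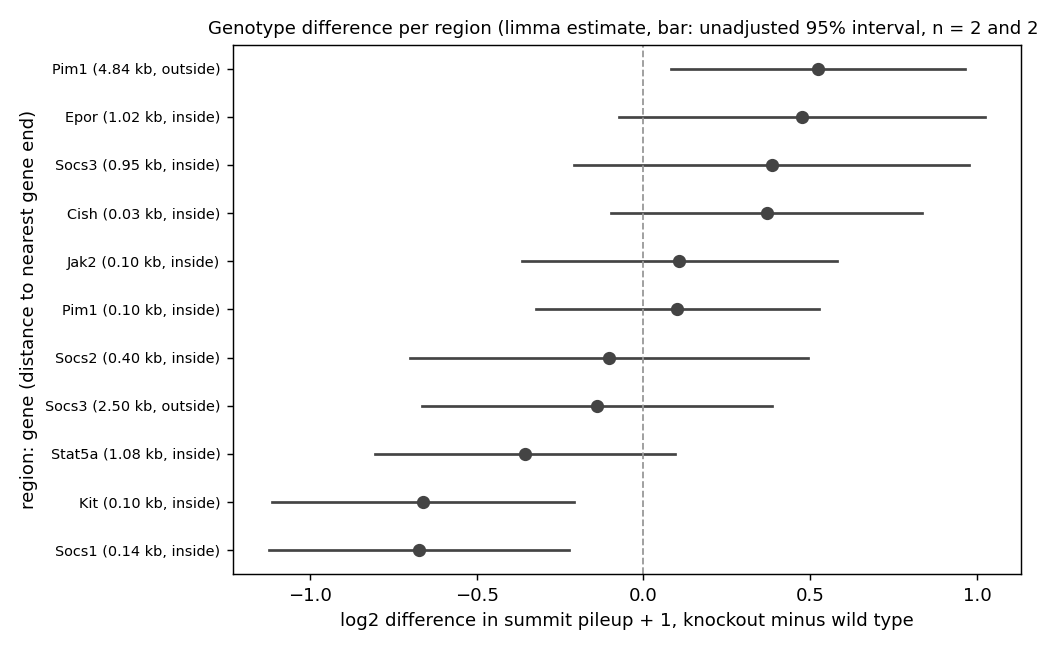
Log2 difference in summit pileup plus 1, knockout minus wild type, for the 11 regions, with points for the limma estimate and bars for its unadjusted 95% interval (2 libraries per genotype). The intervals of Socs1, Kit and the outer Pim1 region leave out 0, and no region passed after adjustment over 8704 regions.

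Regions called in both libraries of 1 genotype and in neither of the other were 3 of the 19, all of them wild-type-only: those outside Jak2, Pim1 and Cish described above. Wild-type-only regions made up 2.25% of all regions and knockout-only regions, of which the set had 0, made up 2.71%. With 3 regions the counts are small, and no peak means only that the caller's threshold was not reached. In wild type their fold enrichments were 7.89 and 5.30 at Jak2, 5.46 and 6.25 at Pim1, and 4.41 and 4.55 at Cish. Those at Cish lay near the bottom of their lists, at the 3.22 and 5.60 percentile. When a wild-type-only region had to reach a -log10 q of 5 in both wild-type libraries, the one at Pim1 remained. None of the 3 overlaps its gene.

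Summits at the starts lay close to the RefSeq position in most libraries. At Pim1 they lay upstream at positions -249 to -237, within 12 bases of each other. At Kit they lay upstream at positions -49 to -20. At Cish the wild-type summits lay 128 and 142 bases downstream and the knockout summits upstream, at positions -40 and -9, so the genotypes did not overlap. The same held for Socs1 and Socs2, 3 of 11 regions, against 33% of all regions called in every library. The largest distance between summits of 1 region was 256 bases, at Socs1. The median over the 11 was 109 bases, against 78 over all such regions.

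**Figure D4:**
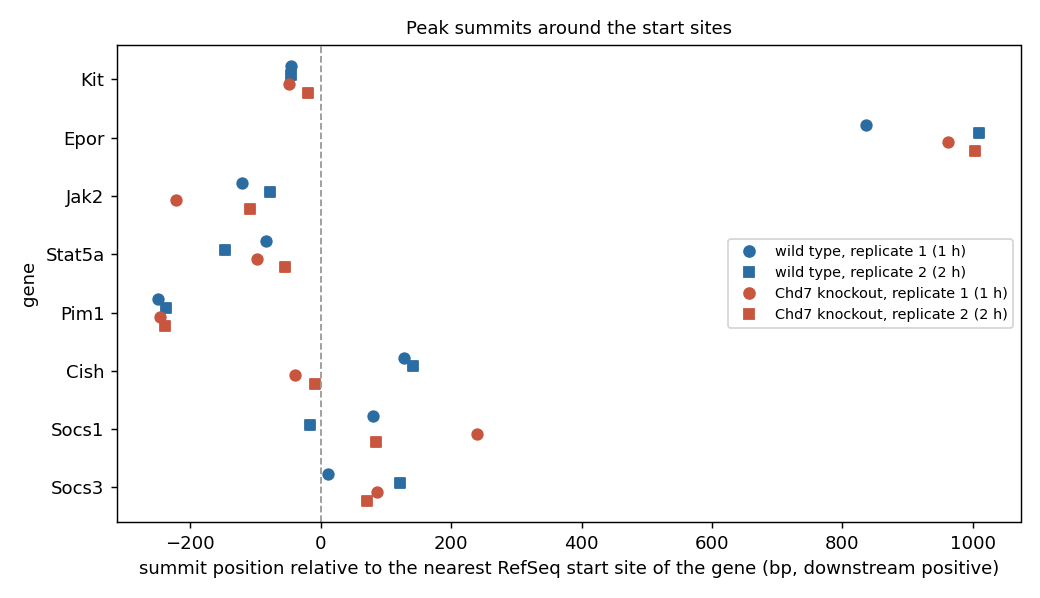
Position of each library's summit relative to the nearest RefSeq start of the gene, in bases with downstream positive, for the 7 genes with a start inside a recurrent region and for Epor (colours and symbols as for the fragment plot). Epor summits lie 836 to 1010 bases downstream, the 4 Pim1 summits coincide within 12 bases, and at Cish the blue and red points lie on opposite sides of the start.

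The 100 kb limit left out 1 strong region at Kit, chosen for mention here after its values were seen. It lies 114337 bases from the gene (chr5:75460422-75460878) and held 28 and 27 fragments in wild type against 25 and 24 in knockout. Distal elements upstream of Kit that bind GATA factors are known in erythroid cells. It stood at the 63.3 to 70.3 percentile of every list, higher than the Kit start in all but wild-type replicate 1. The log2 difference was -0.08 ± 0.19 (SE, n = 2 and 2), with limma adjusted p = 0.948. The remaining regions outside the limit with Kit as nearest gene lay 105374 and 141968 bases away and were each called in 1 library. The farthest region inside the limit lay 53434.5 bases from Pim1.

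By distance between the 4 centred log2 values, the regions most like that at the Kit start among 8404 linked to other genes were at Pcbp2 (distance 0.180), Rere (0.186) and C1qtnf12 (0.219). Pcbp2 had 19, 19, 15 and 10 fragments in the replicates 1 and 2 of wild type, then of knockout. Those most like the Epor region were at Rabep2 (0.146), Drosha (0.159) and Gm11992 (0.162). The Rabep2 region, in the same order, had 11, 20, 20 and 19. These are likenesses over 4 libraries.

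Of 45 other genes of the pathway, covering ligands, further JAK, STAT, SOCS and PIM genes, adaptors, phosphatases, survival genes and targets, 42 had a region and 35 had one called in every library. Among all protein-coding genes, 37.9% had one called in every library. Those without a region included Kitl, which encodes stem cell factor, and Spry2. The 45 genes had 100 regions, of which 49 (49.0%) were called in all libraries, against 56.8% of all regions. All 49 were fitted, 0 passed limma in either direction, and 27 estimates were positive and 22 negative, with a median of 0.02. Wild-type-only regions were 3 of the 100, against 2.25% of all regions. They were at Ptpn6, which encodes the phosphatase SHP-1 that dephosphorylates JAK2, and at Spred2 and Spry1, inhibitors of the MAP kinase pathway. The one inside Ptpn6 (chr6:124732924-124733272) had 11 and 9 fragments in wild type. Knockout-only regions were 2 of the 100, against 2.71% of all regions. They were at the adaptor gene Irs2 with 11 fragments in each knockout library and at Spred1 with 9 in each.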

How the data were processed

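ATAC-seq was analysed in 4 libraries from 1 deposited peak list each, grouped by sample titles. Bowtie2 2.2.1 and MACS2 2.1.0 are named, without role, in the submitters' processing notes, and per the file headers' peak names the build is GRCm38. For threshold, control, read shift and duplicate handling, nothing is stated in the sources. The authors deposited, per peak, a whole-number score, a fold enrichment ratio, −log10 p and −log10 q, and all of these describe a peak within its own list.

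Peaks were merged where they overlapped or touched (bedtools 2.31.1 gave the same 15328 regions), leaving out 2 mitochondrial peaks per library. Genes and start sites came from RefSeq GRCm38.p6. The deposited fold (summit pileup to local background, each with 1 added) together with the Poisson p-value gave 1 whole-number pileup per peak (tolerance 0.001 in −log10 p), for all but 1 peak per library. Where a region held several peaks of a library, the one with the highest −log10 q was used. This assumes that the caller did not rescale pileups. Centring log2(pileup + 1) on library medians preceded the limma 3.58.1 comparison (R 4.3.3), two-sided, with Benjamini-Hochberg adjustment over the 8704 regions with a value in every library and a threshold of 0.05. These p-values measure the spread between these libraries, which includes any difference between the 2 labelled times. Python 3.11.15 and scipy 1.17.1 did the rest, and the steps were tested on simulated data. There, with equal depth and an assumed spread between libraries, limma called 65% of 200 regions changed 4-fold and 0% of 8504 unchanged regions.

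All members were named, with the strongest region of each gene, every genotype-exclusive region and, for Kit and Epor, the 3 regions with the most similar values. Pathway genes were named where exclusive, and those without a region were added after their values were seen. Members and lists were chosen with earlier results of these data known. Alternatives were other scalings, pseudocount, filters, peak thresholds, merging, links, a replicate block and each library left out.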

Additional observations from a re-analysis of the deposited data

Results flagged for a closer look

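At 4 genes the knockout library was lower than the wild-type library at 1 labelled time and higher at the other, in centred log2 pileup of the strongest region, and 1 library per genotype and time means that this difference was not tested. The differences at 1 h and 2 h were -0.0566 and 0.273 at Jak2, -0.0704 and 0.273 at Pim1, -0.642 and 0.437 at Socs2, and 0.137 and -0.415 at the outer Socs3 region. Opposite signs at the 2 times were found at 4 of the 11 member regions and at 45.0% of all 8704 regions, so they were not more frequent at the members.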

How the results depend on the processing

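Genome-wide calls by limma were 0 in the fit reported, 0 without centring (446 unadjusted p-values below 0.05), 0 with a pseudocount of 5 (766) and 0 with regions called in at least 1 library of each genotype (978). There were 2 with the replicate block, 2 with a mean pileup of at least 20, and 70 with centring by lowest background (5 higher and 65 lower in knockout). Leaving out 1 library gave 0 to 55, the 55 without knockout replicate 2 and 3 without knockout replicate 1. No member region passed in any of these fits. The lowest adjusted p was 0.0538 at Socs1 and 0.0558 at Kit, both with centring by lowest background. Same-numbered libraries did not deviate together (correlation 0.00217 over 8704 regions), and the replicate block changed no call at the members.

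The median over the member regions, 0.10, was -0.13 with centring by lowest background, -0.00060 with a mean pileup of at least 20 (4 regions left), and -0.0650 to 0.167 with 1 library left out. It was -0.0650 without wild-type replicate 2 and -0.0212 without knockout replicate 2. Of 103 single-region estimates under alternatives, 94 kept their direction and 9 reversed. With centring by lowest background Jak2 was -0.13 and the Pim1 start -0.13. The others reversed when 1 library was left out: over these fits Jak2 ran from -0.151 (without wild-type replicate 2) to 0.343, the Pim1 start from -0.0246 (without knockout replicate 2; -0.00715 without wild-type replicate 2) to 0.185, Socs2 from -0.537 to 0.272 (without knockout replicate 1; 0.0401 without wild-type replicate 1), and, both reversed without wild-type replicate 2, the outer Socs3 region from -0.454 to 0.151 and the Socs3 start from -0.0650 to 0.810. The cause was not tested.

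Genotype-exclusive members were 3, 1 when peaks of every library, or of the calling genotype, needed a -log10 q of 5, 0 inside gene spans only, and 3 to 5 with 1 library left out (5 without either knockout replicate, which drops a required absence or call). Members called in every library were 11, and 7 when every peak needed a -log10 q of 5, which removes weaker peaks. Outside the Pim1 start, summits of members called in every library held 9 to 30 fragments.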
